A study of Mus musculus with 6 samples.

Results

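The 9 genes described here encode the NDC80 complex (*Ndc80*, *Nuf2*, *Spc24* and *Spc25*), the MIS12 complex (*Mis12*, *Dsn1*, *Nsl1* and *Pmf1*) and *Zwint*, a protein bound to the same scaffold. They were taken by name from the 19938 genes that the array annotation names singly, and each of the 9 has 1 transcript cluster, the probe set that summarises a gene. N2A, a mouse neuroblastoma line, was transiently transfected with 1.5 µg of either a non-targeting control vector (control, 3 arrays) or a plasmid whose hairpin transcript targets *Paupar*, a long noncoding RNA (knockdown, 3 arrays). Total RNA was taken 2.5 days later and 200 ng per sample was hybridised to whole-transcript mouse arrays. All cells grew in medium with 10% fetal bovine serum, carried no other stated alteration and came from a single cell line. No step that selects transfected cells is given for these samples, so an array reads the whole culture. *Paupar* itself is named by 0 of the clusters, and how far it fell was not analysed here.

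The kinetochore is the protein assembly that joins a chromosome's centromere to spindle microtubules during mitosis. Its outer layer is built from the KMN network, named after its parts KNL1, MIS12 and NDC80. The MIS12 complex sits on the inner kinetochore proteins CENP-C and CENP-T, the rod-shaped NDC80 complex reaches out from it to grip the microtubule, and KNL1, which binds ZWINT, recruits the spindle checkpoint. Both complexes are assembled from heterodimers: NDC80 pairs with NUF2 and SPC24 with SPC25, while MIS12 pairs with PMF1 and DSN1 with NSL1. Transcripts of many of these subunits are known to accumulate in dividing cells as they pass from S phase towards mitosis.

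Promoter windows of 7 of the 9 genes, from 250 bases before to 50 bases after the start, were found in the RefSeq table for GRCm38.p6. *Spc24* and *Nsl1* have no entry there. The windows were searched on both strands for a pair of letter patterns of the cell cycle genes homology region or CHR (TTTGAA and TTCGAA), for the CCAAT box (CCAAT) and for 4 E2F patterns (TTTCCCGC, TTTGGCGC, TTTGCCGC and TTTCGCGC), elements common in promoters of cell cycle genes. None of these patterns contains another. The stretches before the start of 4 genes are printed to show where matches lie in a subunit that rose (*Pmf1*), in its partner (*Mis12*), in *Spc25* and in *Zwint*. Capitals mark a match on either strand.
Pmf1 (chr3:88410398-88410647, reverse strand): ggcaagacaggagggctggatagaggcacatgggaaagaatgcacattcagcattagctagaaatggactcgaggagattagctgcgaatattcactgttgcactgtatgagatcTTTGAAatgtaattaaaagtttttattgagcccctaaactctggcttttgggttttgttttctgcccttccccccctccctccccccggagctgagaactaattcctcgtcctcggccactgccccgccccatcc
Mis12 (chr11:71019361-71019610, forward strand): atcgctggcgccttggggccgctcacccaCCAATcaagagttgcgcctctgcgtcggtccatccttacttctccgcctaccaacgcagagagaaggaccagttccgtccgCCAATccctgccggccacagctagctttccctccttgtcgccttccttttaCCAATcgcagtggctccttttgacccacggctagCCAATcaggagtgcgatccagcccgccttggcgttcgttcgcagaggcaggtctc
Spc25 (chr2:69206214-69206463, reverse strand): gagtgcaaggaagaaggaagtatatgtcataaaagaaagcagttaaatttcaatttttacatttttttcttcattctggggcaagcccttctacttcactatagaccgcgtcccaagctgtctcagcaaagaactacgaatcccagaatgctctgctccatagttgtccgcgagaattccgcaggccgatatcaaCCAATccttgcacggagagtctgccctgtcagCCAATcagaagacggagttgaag
Zwint (chr10:72654596-72654845, forward strand): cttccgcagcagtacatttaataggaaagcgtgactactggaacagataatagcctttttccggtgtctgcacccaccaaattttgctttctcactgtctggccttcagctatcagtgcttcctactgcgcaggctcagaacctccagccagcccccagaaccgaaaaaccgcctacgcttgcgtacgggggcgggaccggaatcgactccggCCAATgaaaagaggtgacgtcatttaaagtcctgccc

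CCAAT was present in 4 of the 7 windows, those of *Mis12* (4 matches), *Spc25* (2), *Zwint* (2) and *Pmf1* (1), and in 37.4% of the 32851 promoter windows in the table. The *Pmf1* match, at positions 28 to 32 of the transcript, and 1 *Zwint* match, at 14 to 18, lie outside the stretches shown. A CHR pattern was present in 3 of the 7, against 19.2% of all windows. In *Pmf1* it lay at positions -135 to -130, counted from the start with -1 as the last base before it. In *Ndc80* and *Spc25* it lay at positions 30 to 35 and 25 to 30 of the transcript, outside the stretches shown. An E2F pattern was present in *Dsn1* alone, at positions -204 to -197, against 2.26% of all windows, and the window of *Nuf2* held none of the patterns. These are matches of letters in short windows. 

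The arrays were alike in scale, with a median over named genes between 7.85 and 7.92 on the log2 scale. Control replicate 1 stood apart for the genes in question: the mean of the 9 members lay at -0.22 on that array relative to the control mean, against 0.11 on both other control arrays. Lists of other cell types moved on it in the opposite direction. The mean of 7 fibroblast markers lay at 0.21 on control replicate 1, -0.21 on control replicate 2 and 0.00 on control replicate 3, and that of 7 measured blood and endothelial markers at 0.16, -0.15 and -0.01. Their mean levels spanned 7.12 to 7.53 and 7.11 to 7.42 in control and 7.18 to 7.34 and 7.15 to 7.38 in knockdown, and none of the 6 fibroblast and 5 blood and endothelial genes above the filter on variation passed the test. Single genes lay above these means, with *Cd74* between 10.23 and 11.35 and *Pdgfrb* between 7.90 and 9.55. The part of these lists in the results was not tested. As a check of the labelled cell type, the 10 measured markers of sympathetic neuroblastoma had a mean level between 10.45 and 10.83. *Hand2*, a transcription factor of sympathetic neurons, lay between 11.83 and 12.07 and the neurofilament gene *Nefl* was low, between 5.32 and 6.07 (both named after their values were seen). Of 4 measured glial markers 3 were below the filter and the other 1 did not pass, with a median difference of 0.10.

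The comparison asked how transcripts of the outer kinetochore differed between *Paupar* knockdown and control cells. *Nsl1*, *Pmf1* and *Nuf2* rose, by 1.51-fold, 1.49-fold and 1.43-fold, and no member fell. *Spc25*, *Dsn1*, *Spc24*, *Ndc80* and *Mis12* had higher means in knockdown but did not pass the test, and *Zwint* was nearly level. Thus 3 of the 9 members were called higher (limma, Benjamini-Hochberg adjusted p under 0.05 over 9969 genes), where 2.39% of all genes tested were called higher and 7.54% were called in either direction. The median log2 difference was 0.39 over the 9 members and 0.03 over all 19938 genes. Without control replicate 1 these medians were 0.28 and 0.04. In these bulk cultures, a larger share of cells that express a gene and more RNA of it per cell cannot be told apart. Of the 9 members, 8 were among the 9969 genes kept by the filter on variation and *Zwint* was not. *Ndc80* was the member nearest above the filter (interquartile range at the 53.6th percentile of all genes) and *Zwint* lay below it (42.8th percentile).

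**Figure D1:**
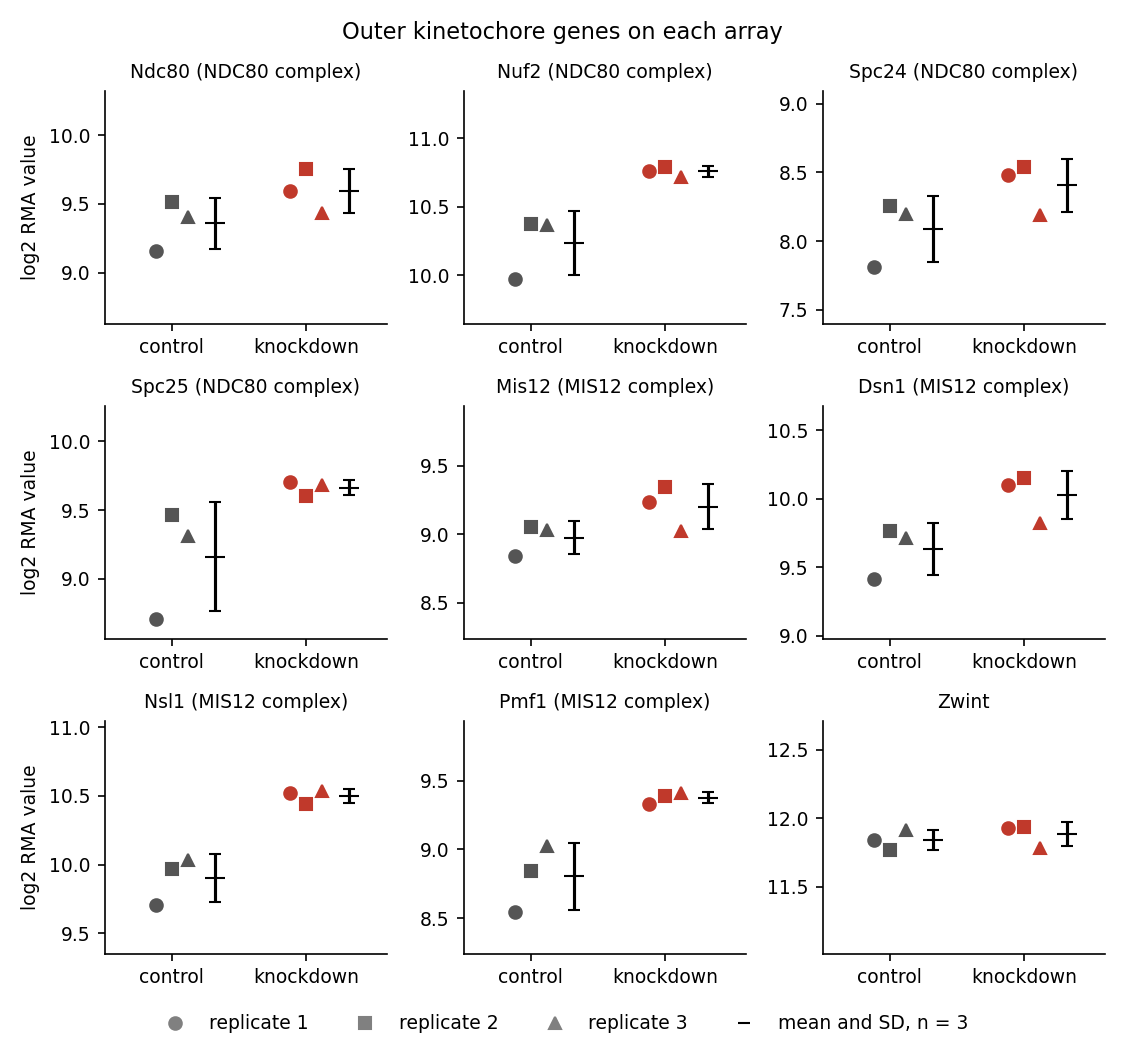
Log2 RMA value (y axis, same span in each panel) of the 9 genes on each control (grey) and *Paupar* knockdown (red) array. Marker shape gives the replicate and the black bars the group mean and SD, n = 3. *Nuf2*, *Spc25*, *Nsl1* and *Pmf1* lie close together on the knockdown arrays, whereas *Zwint* overlaps between groups.

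In the MIS12 complex, *Nsl1* measured 9.70, 9.97 and 10.03 on control replicates 1 to 3 and 10.52, 10.44 and 10.53 on knockdown replicates 1 to 3 (log2 RMA values). All knockdown arrays were above all control arrays, and the knockdown arrays differed among themselves by less than the controls did. The difference was 0.60 ± 0.12 on the log2 scale (moderated SE, n = 3 per group, adjusted p = 0.0133). NSL1 forms a heterodimer with DSN1 and carries part of the surface on which the NDC80 complex docks.

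*Pmf1* encodes the partner of MIS12 in the other heterodimer of the complex. It measured 8.54, 8.85 and 9.02 in control and 9.33, 9.39 and 9.41 in knockdown. The groups did not overlap, with a difference of 0.57 ± 0.13 (adjusted p = 0.0222).

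*Dsn1*, the subunit through which Aurora B phosphorylation is known to promote binding of the MIS12 complex to CENP-C, measured 9.42, 9.77 and 9.72 in control and 10.10, 10.15 and 9.83 in knockdown. The groups did not overlap either, but knockdown replicate 3 lay just above the highest control array, and the difference of 0.39 ± 0.14 did not pass (adjusted p = 0.0912). *Mis12*, which gives the complex its name, measured 8.84, 9.05 and 9.03 in control and 9.24, 9.34 and 9.02 in knockdown. Knockdown replicate 3 lay among the controls, and the difference was 0.23 ± 0.13 (adjusted p = 0.264). For the complex as a whole, 2 of 4 genes rose, with a median difference of 0.48, which was 0.36 without control replicate 1. The share called higher over all genes tested was 2.39%, and the median over all genes was 0.03 (0.04 without control replicate 1).

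In the NDC80 complex, *Nuf2* measured 9.97, 10.38 and 10.37 in control and 10.76, 10.79 and 10.72 in knockdown. The knockdown arrays were all above the controls and varied little (SD 0.04, against 0.23 in control), and the difference was 0.52 ± 0.13 (adjusted p = 0.0316). NUF2 forms, together with NDC80, the globular end of the rod that meets the microtubule.

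*Ndc80*, also known as HEC1, the subunit whose calponin homology domain and flexible tail contact the microtubule, measured 9.15, 9.52 and 9.41 in control and 9.59, 9.76 and 9.44 in knockdown. The groups overlapped, and the difference was 0.24 ± 0.13 (adjusted p = 0.267). Its 95% interval of -0.05 to 0.52 includes 0 and reaches a rise as large as that of *Nuf2*.

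*Spc24* and *Spc25* encode the opposite end of the rod, which docks on the MIS12 complex and on CENP-T. *Spc25* measured 8.71, 9.46 and 9.31 in control and 9.70, 9.60 and 9.68 in knockdown. The groups did not overlap, but the control arrays varied widely (SD 0.40), and the difference of 0.50 ± 0.17 did not pass (adjusted p = 0.0779). *Spc24* measured 7.81, 8.26 and 8.20 in control and 8.48, 8.54 and 8.19 in knockdown, and knockdown replicate 3 lay below both higher controls (difference 0.32 ± 0.15, adjusted p = 0.184). For this complex 1 of 4 genes rose, with a median difference of 0.41, which was 0.23 without control replicate 1. The share called higher over all genes tested was 2.39%, and the median over all genes was 0.03 (0.04 without control replicate 1).

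*Zwint*, which binds KNL1 and helps to bring the RZZ complex to kinetochores, measured 11.84, 11.77 and 11.92 in control and 11.93, 11.94 and 11.78 in knockdown. The groups overlapped: knockdown replicate 3 lay among the controls, and the other knockdown arrays lay just above the highest control. In a fit to all genes the difference was 0.04 ± 0.09, with a 95% interval of -0.15 to 0.23 (adjusted p = 0.846). Taken array by array, *Nsl1* minus *Zwint* was 0.56 higher in knockdown, *Pmf1* minus *Zwint* 0.53 higher and *Nuf2* minus *Zwint* 0.48 higher, in each case with no overlap between groups. *Dsn1* minus *Zwint* also had no overlap (0.35 higher), while *Ndc80*, *Spc24*, *Spc25* and *Mis12* minus *Zwint* overlapped between groups (n = 3 per group). The direction follows from comparing genes called on these same arrays with the most level member, so no test is given for these differences. Among single genes, 12.8% of all 19938 had knockdown values above all control values. No such share is given for differences between genes.

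Knockdown values lay above all control values for 5 of the 9 members (*Nuf2*, *Spc25*, *Dsn1*, *Nsl1* and *Pmf1*), against 12.8% of all 19938 genes and 15.1% of the genes past the filter. The calls depended on single arrays. *Nsl1* passed in 3 of the 6 fits that each left out 1 array (the first or the second control array, or the third knockdown array). *Pmf1* and *Nuf2* passed in 2 of the 6, those lacking the second control or the third knockdown array. When the third control array was left out no member passed, with a smallest adjusted p of 0.0518 in limma and 5 members at an unadjusted p under 0.05. The same held when the first knockdown array was left out (0.0541 and 4 members) and when the second was (0.0507 and 4 members). Without the first knockdown array, only those 4 members were kept by the filter. Calls over all 9969 genes dropped too: 25 were higher without the third control array, 40 without the first knockdown array and 25 without the second. With all arrays 238 were called higher. *Spc25* passed in 1 of the 6 fits, without control replicate 2 (adjusted p = 0.0242), and *Dsn1* in 1, without knockdown replicate 3 (adjusted p = 0.0379). Without control replicate 1 the difference was 0.28 in place of 0.50 for *Spc25*, 0.18 in place of 0.32 for *Spc24* and 0.13 in place of 0.24 for *Ndc80*. Leaving out any 1 array, the difference stayed between 0.50 and 0.66 for *Nsl1*, between 0.44 and 0.68 for *Pmf1* and between 0.39 and 0.59 for *Nuf2*, each time lowest without control replicate 1.

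**Figure D2:**
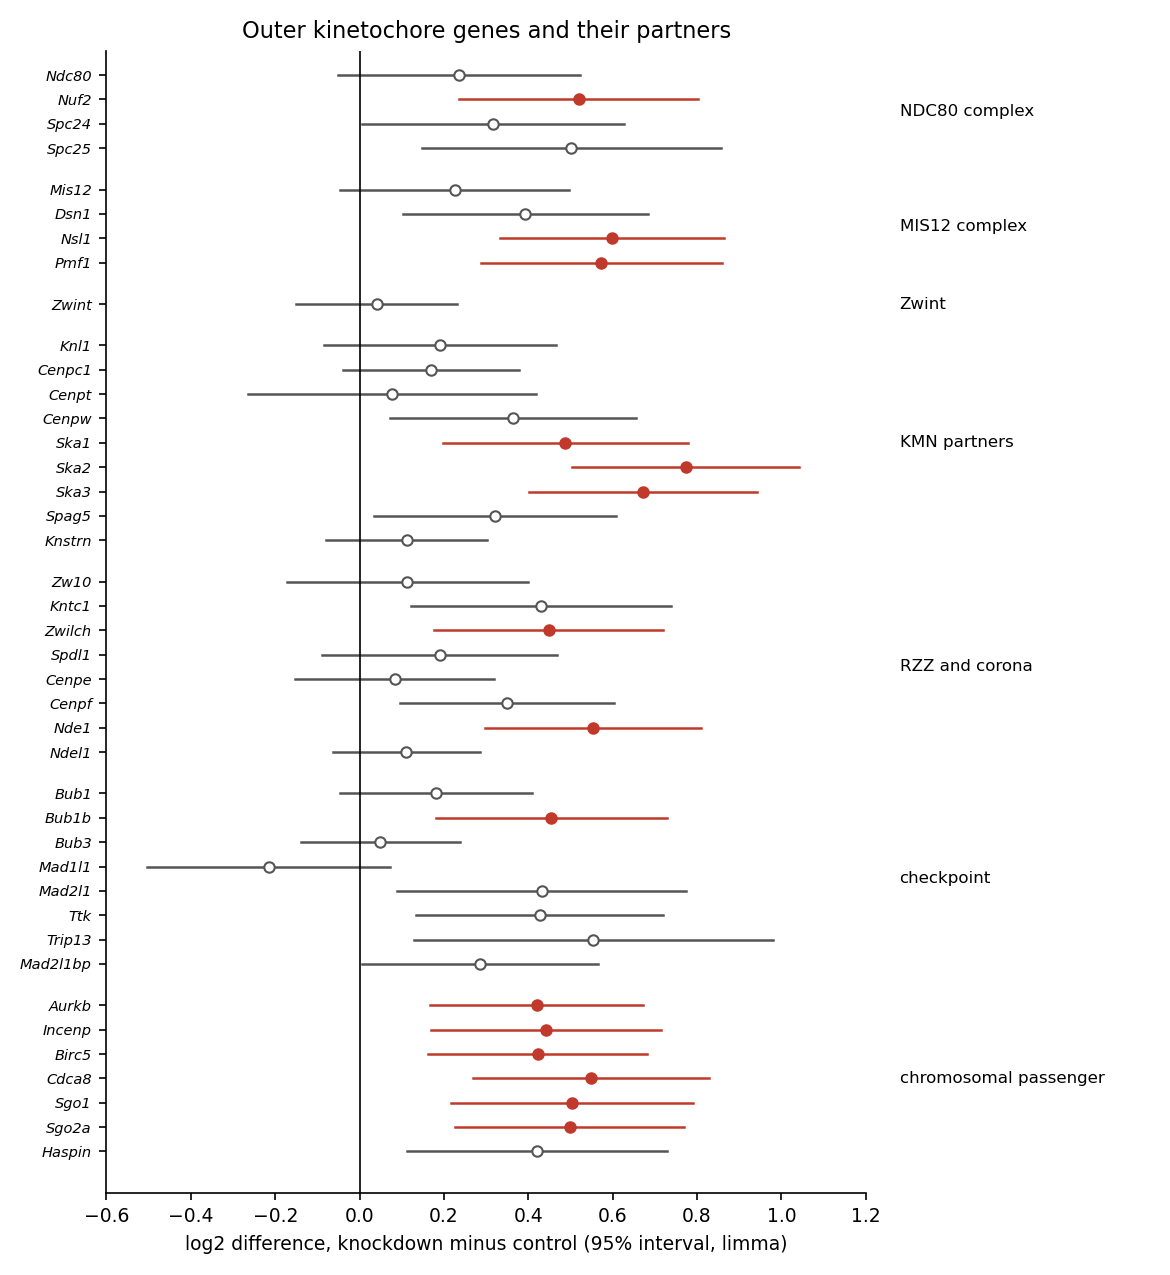
Log2 difference, knockdown minus control (x axis), with its 95% limma interval for the 9 outer kinetochore genes and for 32 genes that work beside them, grouped by role. Red marks an adjusted p under 0.05, and the point of *Mad1l1* alone lies below 0.

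The members varied within their heterodimers. This pairing was looked at after the values were seen, and in each pair the subunit with the larger knockdown minus control difference is named first. Knockdown replicate 3 had the widest gap in each pair and is part of that difference, so the values on it are a description. Relative to the control mean, *Nuf2* was at 0.48 and *Ndc80* at 0.08 on that array. *Spc25* was at 0.52 and *Spc24* at 0.10, *Nsl1* at 0.63 and *Dsn1* at 0.19, and *Pmf1* at 0.61 and *Mis12* at 0.05. On knockdown replicate 2 the partners of *Spc25* and *Nsl1* were level with them (0.45 for *Spc24* and 0.44 for *Spc25*, 0.52 for *Dsn1* and 0.54 for *Nsl1*).

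Over all arrays, the log2 ratio of *Pmf1* to *Mis12* was 0.35 higher in knockdown and that of *Nuf2* to *Ndc80* 0.28 higher, with no overlap between groups. The ratio of *Nsl1* to *Dsn1* was 0.20 higher and that of *Spc25* to *Spc24* 0.19 higher, and both overlapped. Among single genes, 12.8% of all 19938 had knockdown values above all control values, and no such share is given for ratios. The direction of all 4 ratios is fixed by which subunit was put on top, so no test is given for them. These are ratios of array signals, so they compare how far a pair moved and not how much of each transcript was present.

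**Figure D3:**
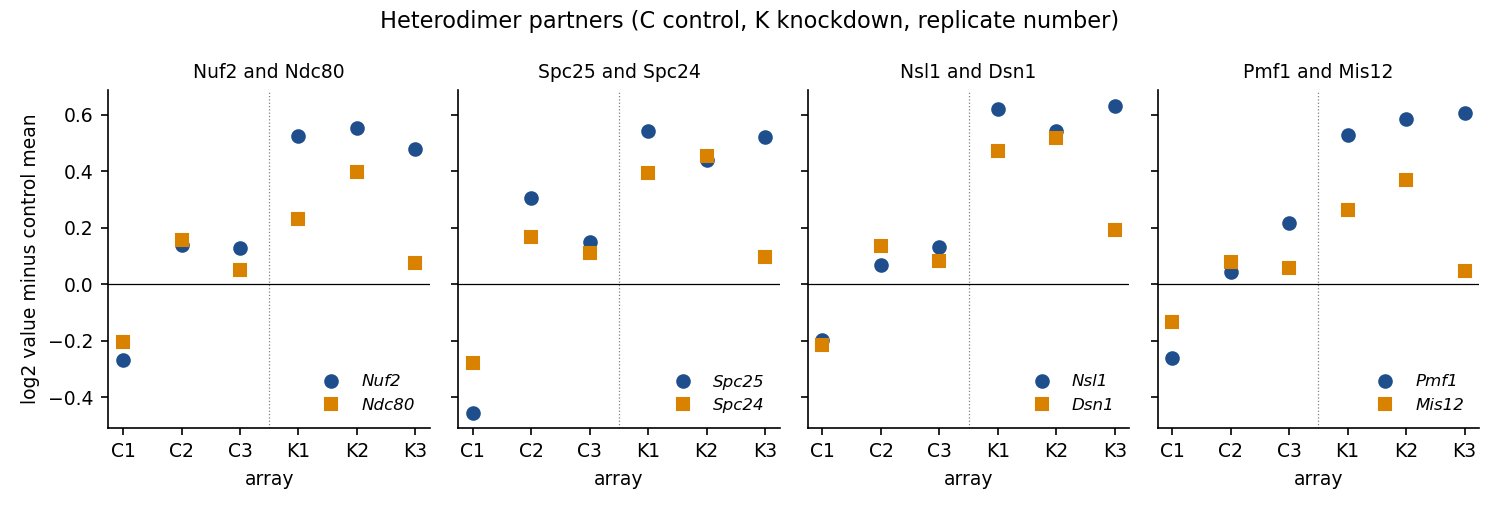
Log2 value minus the control mean (y axis) on the 6 arrays (x axis, C control and K knockdown with replicate number) for the 4 heterodimers. On K3 *Nuf2*, *Spc25*, *Nsl1* and *Pmf1* lie between 0.48 and 0.63 and their partners between 0.05 and 0.19. K3 is the array with the widest gap in all 4 pairs, and the pairing was looked at after the values were seen. On K2 *Spc24* and *Dsn1* are level with *Spc25* and *Nsl1*.

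Of 32 genes that work beside these complexes, 12 rose, none fell, 13 did not pass and 7 were below the filter. Over all genes tested, 2.39% were called higher and 7.54% in either direction. The median difference of the 32 genes was 0.42, and 0.27 without control replicate 1. Among 9 direct partners of the KMN network, all 3 subunits of the SKA complex, which loads onto NDC80-bound microtubules and strengthens their grip, rose: *Ska2* by 1.71-fold, *Ska3* by 1.59-fold and *Ska1* by 1.40-fold (adjusted p = 0.00352, 0.00796 and 0.0441). *Ska2* measured 10.41, 10.68 and 10.64 in control and 11.43, 11.41 and 11.21 in knockdown. Its difference of 0.77 was larger than that of any of the 9 members. *Knl1*, the scaffold that completes the KMN network, measured 10.78, 11.15 and 10.97 in control and 11.23, 11.19 and 11.05 in knockdown, a difference of 0.19 ± 0.13 that did not pass (adjusted p = 0.352). The inner kinetochore genes on which both complexes rest, *Cenpt* and *Cenpc1*, differed by 0.08 and 0.17 and were below the filter.

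Of 8 genes of the fibrous corona and the RZZ complex, which bring dynein and checkpoint proteins to unattached kinetochores, *Nde1* (1.47-fold) and *Zwilch* (1.36-fold) rose. The other RZZ subunits, *Kntc1* and *Zw10*, had differences of 0.43 and 0.11 and did not pass. For this list and the next, the share called higher over all genes tested was 2.39%. Of 8 checkpoint genes 1 rose, *Bub1b*, which encodes the BUBR1 protein of the mitotic checkpoint complex (1.37-fold, adjusted p = 0.0454). *Mad1l1*, which anchors MAD2 at the kinetochore, had a difference of -0.22 that did not pass (adjusted p = 0.311), and the median of the checkpoint list was 0.36 (0.20 without control replicate 1). Of 7 genes of the chromosomal passenger complex and its centromeric recruiters, 6 rose: *Cdca8* by 1.46-fold, *Sgo1* and *Sgo2a* by 1.42-fold and 1.41-fold, and *Incenp*, *Birc5* and *Aurkb*, the kinase that corrects faulty attachments by phosphorylating NDC80, by 1.36-fold, 1.34-fold and 1.34-fold. The counts of the 32 genes rested on single arrays as those of the members did. In each of the 4 fits that lacked control replicate 1 or 3 or knockdown replicate 1 or 2, 2 passed. Over all 9969 genes, those fits called 48, 25, 40 and 25 higher, in that order, against 238 with all arrays.

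The outer kinetochore genes were also set beside general lists. Beside the counts below, 2.39% of all genes tested were called higher and 7.54% in either direction. Of 14 measured markers of G2 and M phase 3 rose (*Kif11*, *Ccna2* and *Plk1*, by 1.41-fold, 1.37-fold and 1.34-fold). The median difference was 0.37 (0.26 without control replicate 1). Of 14 measured S phase markers 9 rose, led by *Rrm2* (2.08-fold), with a median of 0.60 (0.41 without control replicate 1). Of 9 measured housekeeping genes 7 were below the filter and the other 2 did not pass, with a median of 0.00. Of 10 measured markers of sympathetic neuroblastoma 3 fell, *Dbh*, *Th* and *Chgb*, and none rose. Control replicate 1 was the lowest array for both complexes, for all 4 partner lists and for the S phase and the G2 and M phase lists. On knockdown replicate 3, the NDC80 list lay at 0.29 (0.42 and 0.46 on knockdown replicates 1 and 2), the MIS12 list at 0.37 (0.47 and 0.50) and the S phase list at 0.44 (0.69 and 0.68), while the G2 and M phase list lay at 0.33 (0.30 and 0.36).

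**Figure D4:**
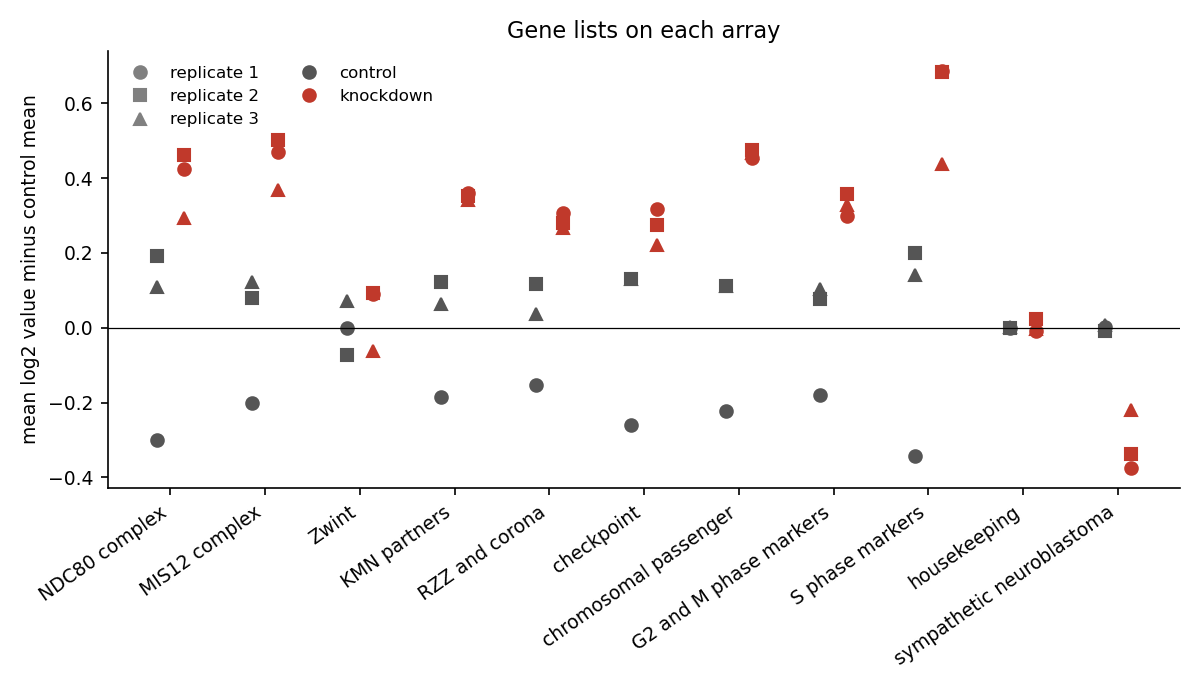
Mean log2 value of each gene list minus its control mean (y axis) on control (grey) and knockdown (red) arrays, with marker shape for the replicate. Control replicate 1 is the lowest array for both complexes, and housekeeping genes stay within 0.03 of the control mean.

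Genes with a profile most like that of the NDC80 complex were found by the smallest root mean square difference over the 6 arrays, each gene centred on its own mean. For the mean of the 4 subunits these were *Rbm48*, *Haspin*, *Cdk1*, *Pradc1* and *H1f5*, at 0.03 to 0.04 on the log2 scale. *Cdk1* encodes the kinase that drives entry into mitosis, and *Haspin* the kinase that marks histone H3 for the chromosomal passenger complex. For the mean of the 4 MIS12 subunits they were *Incenp*, *Nek2*, *Ifrd2*, *Aurka* and *Taf4b*, at 0.02 to 0.03. *Incenp* is the scaffold of the chromosomal passenger complex, and *Nek2* and *Aurka* encode centrosomal kinases. These are the smallest distances among all genes. The NDC80 subunits lay between 0.07 (*Spc24*, with 82 genes nearer) and 0.12 (*Spc25*, with 511 nearer) from the mean of their complex, and the MIS12 subunits between 0.07 (*Dsn1*, with 107 nearer) and 0.13 (*Mis12*, with 729 nearer). *Nuf2* lay 0.05 from the MIS12 mean, nearer than any MIS12 subunit. *Zwint* was at 0.24 and 0.23, with 5932 and 5896 genes nearer.

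The 9 genes lie on 7 chromosomes, with *Nuf2* and *Nsl1* on chromosome 1 and *Spc25* and *Dsn1* on chromosome 2. Of the 20 genes that overlap them or are the nearest measured on either side, none rose and 1 fell. Many of the 20 were below the filter on variation and could not be called. Over all genes tested, 2.39% were called higher and 7.54% in either direction. The gene that fell was the protocadherin gene *Pcdh15*, 421313 bases from *Zwint* (difference -0.66, adjusted p = 0.0482). The nearest measured genes can be far off, as *Rxrg* is at 1858310 bases from *Nuf2*. *Derl2*, which overlaps *Mis12*, and *Tatdn3*, which overlaps *Nsl1*, had differences of 0.08 and -0.07 in the fit to all genes. *Slc25a44*, whose annotated end lies 49 bases from *Pmf1*, had 0.28 ± 0.11 (adjusted p = 0.138), against 0.57 for *Pmf1*.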

How the data were processed

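RNA of 3 control and 3 *Paupar* knockdown N2A cultures, called biological replicates in the methods, was measured on Affymetrix Mouse Gene 1.0 ST arrays. The deposited values are log2 expression values per transcript cluster: per the methods, the authors applied RMA background correction, quantile normalisation and summarisation. Tool versions and genome build: not given in the sources used here. Quantile normalisation gives all arrays 1 distribution, so a change common to all genes would not be seen, and RMA compresses small differences of weak signals.

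Of 35556 clusters, 21789 had 1 gene symbol in the platform annotation, 1621 several and 12146 none. Clusters without a single symbol were left out, and the cluster with the highest mean was kept per gene, leaving 19938 genes. 7 listed genes had no such cluster. As in the methods, little-varying genes were removed (here the lower 50% by interquartile range, a measure chosen here, leaving 9969), and the groups were contrasted in limma 3.58.1 under R 4.3.3 (lmFit, then eBayes). P-values were adjusted by Benjamini-Hochberg and called at 0.05. Values of genes below the filter come from the same model fitted to all 19938. The steps were tested on simulated data in which genes varied independently. In the real data both complexes and the S phase list were lowest on control replicate 1, so that run does not measure how reliable these calls are. The number of arrays limits the precision.

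The members and gene lists were chosen with earlier results of these data known. Named are the members, their partner lists, their neighbours, the 5 nearest profiles per complex and at most 3 genes of each reference list, with *Hand2* and *Nefl* as exceptions. Sequences are from RefSeq. Alternatives tried were the filter, its measure, the cluster per gene, unnamed clusters, scaling, array weights, the variance prior, a replicate block and each array left out.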

Additional observations from a re-analysis of the deposited data

How the results depend on the processing

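The count of 3 members called higher was the same without the variance filter and with arrays centred on the median. The same held with the mean of all clusters of a gene, but each member has 1 cluster and so kept its values. The count was also 3 with a trended robust prior and with the replicate number as a block. The count was 4 with a filter by sample variance. It was 8 with array weights, where 5561 of 9969 genes passed, and 0 when clusters lacking a single symbol stayed in, where 0 of 17778 clusters passed in limma and 5 members had an unadjusted p under 0.05. With 1 array left out it ranged from 0 to 4. In those fits 25 to 334 of all 9969 genes were called higher, against 238 with all arrays. The count of 12 partner genes was 7 without the variance filter, 7 with the replicate block, 0 with unnamed clusters kept (17 had an unadjusted p under 0.05) and 21 with array weights, which also called 1 lower. With 1 array left out it ranged from 2 to 17. No member's difference changed direction in any fit that held it. Deviations from the group means on same-numbered arrays had correlations of -0.34, 0.10 and 0.08 for replicates 1 to 3. Not every array correlated best with its own number. With 3 arrays per group, these correlations cannot settle whether the numbers pair samples. The block changed no call of a member. With n = 3 per group, the intervals of *Ndc80* and *Mis12* run from -0.05 to 0.52 and from -0.05 to 0.50, so no absence of change can be read from them.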
